A study of Mus musculus with 2 samples.

Results

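The 9 genes described here encode the subunits of CCT, the cytosolic chaperonin, in the testis of 1 mouse. They are Tcp1, Cct2, Cct3, Cct4, Cct5, Cct6a, Cct6b, Cct7 and Cct8. They were chosen by name, through gene identifiers, and all 9 were found among the 43346 genes with an Ensembl identifier in the deposited tables. The animal was an adult male of the inbred strain C57BL/6J, 10 weeks old. Its testis RNA was made into 2 polyA mRNA libraries, which are technical replicates 2 and 1 of 1 biological replicate, and replicate 2 was made later. There is 1 group, with no treatment, mutation or second animal, so each value describes this testis. Any SD given with a mean is that of 2 technical libraries. Expected counts, which are estimated reads, summed to 20675551 in replicate 2 and 31995377 in replicate 1.

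CCT, also called TRiC, is a pair of stacked rings, and each ring holds 8 different but related subunits in fixed places. An unfolded protein is closed inside the chamber and folds there while the subunits hydrolyse ATP. Actin and tubulin are its best known clients, and developing sperm cells use tubulin in large amounts for the manchette and the flagellum. Tcp1 encodes subunit 1 (alpha) and was first described as a gene of the mouse t-complex with high expression in testis. Place 6 (zeta) has a pair of genes in mammals. Cct6a is the widely expressed form, and Cct6b is known as the testis form.

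The first 60 coding bases of the place 6 genes are shown because the comparison of Cct6b with Cct6a rests on telling their reads apart. They were read from the GENCODE M21 transcripts Cct6b-201 and Cct6a-201, 5′ to 3′ on the coding strand, and capitals mark the 22 positions at which they differ.
Cct6b: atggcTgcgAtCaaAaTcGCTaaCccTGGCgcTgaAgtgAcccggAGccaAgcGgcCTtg
Cct6a: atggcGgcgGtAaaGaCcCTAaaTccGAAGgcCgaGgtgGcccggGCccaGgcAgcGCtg
Over the whole aligned coding sequence the pair matched at 1183 of 1587 bases, an identity of 74.5%. The longest run without a difference was 20 bases. The other 35 pairs of the 9 coding sequences had identities of 57.0% to 62.2%, so place 6 held the closest relatives. The deposited posterior SD of the gene count was 0 reads for Cct6b and Cct6a in both libraries.

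The promoters of the place 6 genes and of Tcp1, the most abundant member, are shown next because their levels are compared below. Each window holds 250 bases before and 50 bases after the start of transcription, from RefSeq on GRCm38.p6, 5′ to 3′ on the gene's strand. Capitals mark matches to TGACG (the core of a cAMP response element), CCAAT, TTCNNGAA or GAANNTTC (both forms of a heat shock element core, which read the same on either strand), searched on both strands. The Cct6b window is chr11:82764272-82764571 on the minus strand, the Cct6a window chr5:129787106-129787405 on the plus strand and the Tcp1 window chr17:12916079-12916378 on the plus strand.
Cct6b: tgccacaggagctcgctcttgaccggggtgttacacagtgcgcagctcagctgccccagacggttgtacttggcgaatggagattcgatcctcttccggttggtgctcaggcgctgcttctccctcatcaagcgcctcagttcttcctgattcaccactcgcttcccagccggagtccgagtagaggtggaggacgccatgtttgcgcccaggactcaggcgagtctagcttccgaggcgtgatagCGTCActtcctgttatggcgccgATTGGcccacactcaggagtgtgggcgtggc
Cct6a: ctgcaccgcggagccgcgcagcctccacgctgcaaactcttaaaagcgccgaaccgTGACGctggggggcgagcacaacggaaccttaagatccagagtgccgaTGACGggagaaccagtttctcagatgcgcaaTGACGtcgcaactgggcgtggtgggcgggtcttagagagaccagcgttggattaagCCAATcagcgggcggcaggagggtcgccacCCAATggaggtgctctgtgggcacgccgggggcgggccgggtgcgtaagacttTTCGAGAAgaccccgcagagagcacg
Tcp1: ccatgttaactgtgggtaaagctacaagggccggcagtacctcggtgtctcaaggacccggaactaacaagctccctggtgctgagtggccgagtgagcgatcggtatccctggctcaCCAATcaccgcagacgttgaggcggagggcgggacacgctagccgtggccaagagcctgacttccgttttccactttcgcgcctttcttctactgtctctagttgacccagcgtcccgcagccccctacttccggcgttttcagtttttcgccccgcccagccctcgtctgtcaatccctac
Windows were found for 8 of the 9 genes, 10 windows in all. TGACG occurred in 2 of them, those of Cct6b and Cct6a, against 20.8% of 32851 windows of all genes. CCAAT occurred in 5 of the 10, against 37.4% of all windows. TTCNNGAA occurred in 2 of the 10 (Cct5 and Cct6a) and GAANNTTC in 1 (Cct2), against 8.52% and 7.86% of all windows. The 10 windows held 19 to 30 CpG dinucleotides each, where the median of all windows was 7. These matches describe letters in the windows and no binding was measured.

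The tissue label was checked first. The germ cell markers (Ddx4, Sycp3, Ldhc, Acrv1, Prm1 and Tnp1) were all detected and summed to 24782 TPM in replicate 2 and 8757 TPM in replicate 1. Prm1 was the highest in both libraries, at 10087 TPM in replicate 2 and 3011 TPM in replicate 1. Tnp1 was at 9611 and 1008 TPM, and Ldhc at 4131 and 2850 TPM, each higher in replicate 2. Ddx4, at 319 TPM in replicate 2 and 692 TPM in replicate 1, and Sycp3, at 263 and 807 TPM, had the opposite order. The Leydig cell markers Cyp17a1 and Star were at 242 and 28.6 TPM in replicate 2 and 225 and 27.4 TPM in replicate 1, and Insl3 was at 1630 TPM in replicate 2 and 83.2 TPM in replicate 1. Of the Sertoli cell markers, Clu was at 1031 TPM in replicate 2 and 836 TPM in replicate 1, Sox9 at 5.48 and 6.35 TPM, and Amhr2 at 172 and 2.4 TPM. Of the epididymis markers, Lcn5 was listed at 0 in both libraries, but Crisp1 and Rnase10 were detected in both. Crisp1 was at 19.3 TPM in replicate 2 and 53.8 TPM in replicate 1, and Rnase10 at 4.66 and 6.23 TPM. The list summed to 24.0 TPM in replicate 2 and 60.03 TPM in replicate 1. The skeletal muscle markers Ckm and Acta1 summed to 0.71 TPM in replicate 2 and were listed at 0 in replicate 1. Of the liver markers, Alb was detected in both, at 3.64 TPM in replicate 2 and 1.34 TPM in replicate 1. Apoa1 was at 0.77 TPM in replicate 2 and listed at 0 in replicate 1. A level in whole tissue depends on the number of cells of a type and on the RNA per cell, which cannot be told apart, and the labels do not state whether both libraries came from 1 RNA extract.

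All 9 CCT genes were detected in both libraries, where detection means 1 TPM or more (a level scaled for transcript length and library depth). Among annotated protein-coding genes 54.6% were detected in both. Every CCT gene lay above 91.0% of protein-coding genes by TPM in replicate 2 and above 93.9% in replicate 1. Their 9 levels summed to 3494 TPM in replicate 2 and 4581 TPM in replicate 1.

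Tcp1 (ENSMUSG00000068039.8, chromosome 17, 12915701 to 12925067 on mm10, plus strand) was the most abundant in both libraries. It had 1242 TPM in replicate 2 and 2588 TPM in replicate 1, from 35930 and 97360 expected counts. Its level was above that of each of the other 8 genes in both libraries. It was 2.96 times the next gene, Cct3, in replicate 2 and 4.44 times the next gene, Cct4, in replicate 1. Tcp1 alone held 35.6% of the summed TPM of the 9 genes in replicate 2 and 56.5% in replicate 1. Its mean was 1915 ± 951 TPM (SD, n = 2 technical libraries).

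The subunits of places 2 to 5 lay lower. Cct4 (delta; ENSMUSG00000007739.6, chromosome 11, 22990519 to 23003780) had 311 TPM in replicate 2 and 583 TPM in replicate 1. Cct3 (gamma; ENSMUSG00000001416.9, chromosome 3, 88297116 to 88321767) had 420 TPM in replicate 2 and 239 TPM in replicate 1. Cct4 came second among the 9 genes in replicate 1 and was at rank 5 in replicate 2, and Cct3 came second in replicate 2 and was at rank 5 in replicate 1. Cct2 (beta; ENSMUSG00000034024.7, chromosome 10, 117051001 to 117063814) had 262 TPM in replicate 2 and 216 TPM in replicate 1. Cct5 (epsilon; ENSMUSG00000022234.10, chromosome 15, 31590800 to 31601804) had 334 TPM in replicate 2 and 126 TPM in replicate 1. Cct5 was the lowest of all 9 genes in replicate 1 and the fourth highest in replicate 2.

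Places 7 and 8 stood in opposite order in the libraries. Cct7 (eta; ENSMUSG00000030007.6, chromosome 6, 85451514 to 85468475) had 409 TPM in replicate 2 and 135 TPM in replicate 1. Cct8 (theta; ENSMUSG00000025613.9, chromosome 16, 87483326 to 87495873) had 167 TPM in replicate 2 and 304 TPM in replicate 1. Cct7 therefore stood above Cct8 in replicate 2 and below it in replicate 1. The SD over the libraries ran from 4.03 TPM for Cct6b (mean 245 TPM) to 951 TPM for Tcp1, with Cct7 next (272 ± 193 TPM, n = 2 technical libraries).

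**Figure D1:**
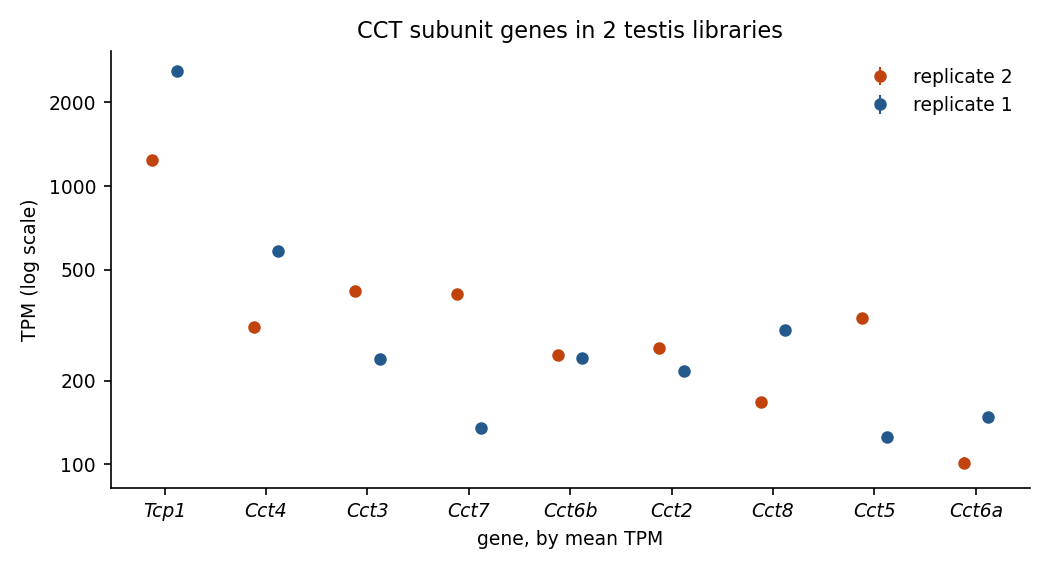
TPM (log scale) of each CCT gene in replicate 2 (orange, left) and replicate 1 (blue, right), ordered by mean TPM. Bars, mostly hidden by the points, are exact 95% Poisson counting intervals. Tcp1 stands apart at 1242 and 2588 TPM, and the other 8 genes lie between 101 and 583 TPM.

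Cct6b was more abundant than Cct6a in both libraries. Cct6b (ENSMUSG00000020698.7, chromosome 11, 82719250 to 82764321, minus strand) had 248 TPM in replicate 2 and 242 TPM in replicate 1, from 5535 and 8451 expected counts. Cct6a (ENSMUSG00000029447.8, chromosome 5, 129786998 to 129846371, plus strand) had 101 TPM in replicate 2 and 148 TPM in replicate 1, from 1971 and 4543 expected counts. The lower Cct6b value lay above the higher Cct6a value, so the pair did not overlap between genes.

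The TPM of Cct6b was 2.44 times that of Cct6a in replicate 2 (95% interval 2.32 to 2.57, exact by Clopper-Pearson after scaling counts for length) and 1.63 times in replicate 1 (1.57 to 1.69). Both intervals lay above 1. On the log2 scale the ratio was 1.29 in replicate 2 and 0.70 in replicate 1, with a mean of 1.00 ± 0.41 (SD, n = 2 technical libraries). Without length scaling, the ratio of expected counts was 2.81 in replicate 2 and 1.86 in replicate 1. Cct6b thus held 70.9% of the pair's TPM in replicate 2 and 61.98% in replicate 1. Intervals here cover the counting error of reads within 1 library only. They leave out the difference between libraries, and PCR copies were not told apart from separate molecules.

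The gene model of Cct6a limits this comparison. The deposited table has 1 transcript for Cct6a, Cct6a-201, of 1599 bases. It starts with ATG, ends with a stop codon and has 0 stop codons in frame before it, so it is a coding length of 533 codons including the stop, with no untranslated bases. GENCODE M21 holds a longer model, Cct6a-202, of 2454 bases, which it tags as having a sequence error. M21 also calls the gene a processed transcript and gives none of its transcripts a protein-coding type. The deposited model has an intron of 50165 bases (chromosome 5, 129794648 to 129844812), where its next longest is 1533 bases. Reads from untranslated parts of Cct6a had no place in this model, which lowers its count but also its length. How far this moves the TPM was not tested.

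When both place 6 genes were summed, place 6 reached 349 TPM in replicate 2 and 390 TPM in replicate 1. That was 1.04 times the median of the other 7 places in replicate 2 and 1.63 times in replicate 1. Cct6a alone was at 0.303 times that median in replicate 2 and 0.622 times in replicate 1. The summed level ranked as place 4 of 8 in replicate 2 and place 3 of 8 in replicate 1.

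Subunit balance was described by the ratio of each gene to the median of the 8 places, with Cct6a at place 6. By TPM, Tcp1 was highest in both libraries, and the lowest was Cct6a in replicate 2 and Cct5 in replicate 1. The highest was 12.3 times the lowest in replicate 2 and 20.6 times in replicate 1. By expected count, Cct6a was lowest in both libraries, and Tcp1 stood 18.2 times above it in replicate 2 and 21.4 times in replicate 1. Expected counts are not scaled for length, and the deposited Cct6a model, of 1599 bases, gives it the smallest length of the 9 genes. In replicate 1 Cct6a had 4543 counts against 4634 for Cct5, but 148 TPM against 126 TPM. Leaving Tcp1 aside, the other 7 places spanned 4.14-fold in TPM in replicate 2 (Cct3 over Cct6a) and 4.64-fold in replicate 1 (Cct4 over Cct5). By expected count they spanned 6.45-fold in replicate 2 (Cct7 over Cct6a) and 4.89-fold in replicate 1 (Cct4 over Cct6a). Which library had the wider span therefore depended on the measure.

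**Figure D2:**
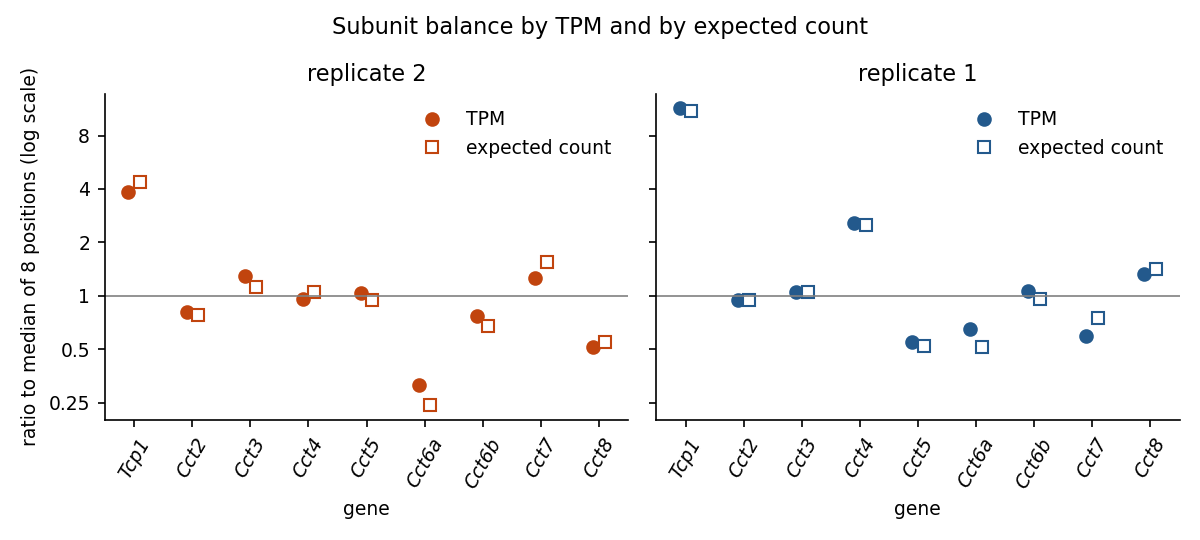
Ratio of each gene to the median of the 8 places (log scale) in replicate 2 (left panel) and replicate 1 (right panel), by TPM (filled circles) and by expected count (open squares). The grey line marks the median. Tcp1 is the highest in each panel by both measures, and Cct6a is the lowest by both in replicate 2 and by expected count in replicate 1.

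The order of the genes was only weakly shared, with a Spearman's rho of 0.12 between the TPM of the libraries across the 9 genes. Of the 36 pairs among the 9 genes, 20 had the same order by TPM in both libraries and 16 did not. In 19 of the 20 the counting interval of the ratio also excluded 1 in both libraries, and the exception was Cct3 over Cct7, whose interval included 1 in replicate 2. Tcp1 supplied 8 of the 20 pairs. Cct6a was below Tcp1, Cct2, Cct3, Cct4, Cct6b and Cct8 in both libraries. Ordered by mean TPM, the genes ran Tcp1, Cct4, Cct3, Cct7, Cct6b, Cct2, Cct8, Cct5 and Cct6a. Of the 8 pairs of neighbours in that order, Tcp1 with Cct4 and Cct3 with Cct7 kept their order in both libraries, and the other 6 did not. For Cct3 and Cct7 this held by TPM only, as Cct7 had 12720 expected counts in replicate 2 against 9107 for Cct3.

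The libraries were then compared gene by gene on expected counts, to show how far each level depends on the library. All 18589 genes averaging at least 10 counts entered an exact binomial test with TMM scaling in edgeR, with Benjamini-Hochberg adjustment. Calls needed at least a 2-fold ratio as well as an adjusted p below 0.05. What is compared is the reads of separate libraries from 1 testis, and neither a condition nor an animal is tested. It called 5 of the 9 CCT genes, where 55.8% of all tested genes were called. Of the CCT genes, 2 were higher in replicate 2 (32.1% of all genes) and 3 were lower (23.7% of all genes), so the share of members called was near that of all genes.

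Cct7 and Cct5 rose in replicate 2 relative to replicate 1, by 2.42-fold and 2.11-fold in scaled counts. Tcp1, Cct4 and Cct8 fell to 0.466, 0.488 and 0.453 times their replicate 1 counts. The log2 ratio of replicate 2 over replicate 1 was -0.87 for Cct6a, -0.27 for Cct6b, 0.31 for Cct3 and -0.04 for Cct2, all short of the limit. The adjusted p of the exact test was 0.107 for Cct2, and its 95% interval was -0.09 to 0.01 on the log2 scale. Scaled by total counts instead of TMM, which shifts the median of all tested genes to 0.29 on the log2 scale, 2 of the 9 CCT genes were called, where 51.5% of all tested genes were. These were Cct5 and Cct7, and Cct6b and Cct2 then stood at 0.02 and 0.25. At a 3-fold limit with TMM scaling, 0 of the 9 were called, where 33.5% of all tested genes were.

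GC content of the transcripts moved with these library ratios. The most abundant transcript of each CCT gene had 43.3% (Cct8) to 54.0% (Cct7) GC. Across the 9 genes, Spearman's rho between GC content and the log2 ratio was 0.83, and across 18404 tested genes it was 0.89. These are correlations across genes that share the same pair of libraries, and genes are not independent replicates. Once the typical ratio at a gene's GC content had been taken off, 0 of the 9 CCT genes were called by the same exact test, and 20.0% of all tested genes were. The log2 ratios then ran from -0.58 for Tcp1 to 0.83 for Cct5, and their SD across the 9 genes was 0.48 in place of 0.93. For Cct6b it was 0.27, for Cct2 0.47 and for Cct7 -0.43, each with the sign turned. Cct6b (47.1% GC) and Cct6a (46.4% GC) were close in GC content. Of the 6 germ cell markers, summing to 24782 TPM in replicate 2 and 8757 TPM in replicate 1, Prm1, Tnp1 and Ldhc were higher in replicate 2 and Ddx4, Sycp3 and Acrv1 lower by TPM, and their part in these ratios was not tested.

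**Figure D3:**
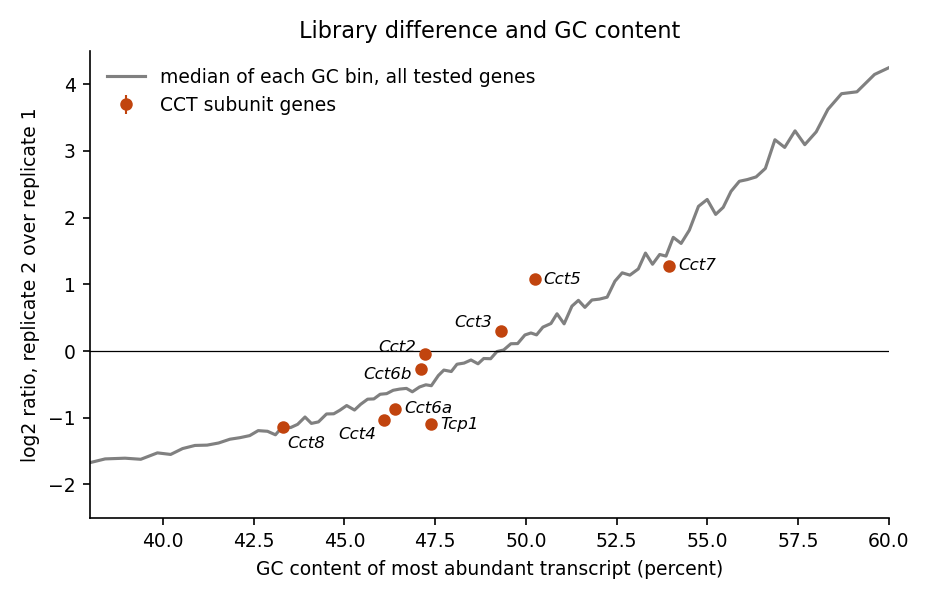
Log2 ratio of scaled counts, replicate 2 over replicate 1, against the GC content of each gene's most abundant transcript. Orange points are the CCT genes with exact 95% counting intervals, and the grey line is the median of 100 bins of all tested genes, shown from 38 to 60% GC. Cct8 at 43.3% GC lies lowest at -1.14 and Cct7 at 54.0% GC highest at 1.28.

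At the transcript level the table held 49 transcripts of the 9 genes, of which M21 types 21 as protein-coding. Cct2, Cct7 and Cct6a had 1 transcript each. Among the 6 genes with several, Cct3, Cct5, Cct6b and Cct8 had the same leading transcript in both libraries, and Tcp1 and Cct4 did not. Cct5-201 held 97.5% of Cct5 in replicate 2 and 99.3% in replicate 1.

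In Tcp1 the estimates were divided between a pair of coding transcripts. Tcp1-209, of 2446 bases, held 76.7% in replicate 2 and 33.1% in replicate 1. Tcp1-201, of 1902 bases, held 20.7% in replicate 2 and 52.3% in replicate 1. Both models end their coding part at the same base (12924473), but Tcp1-209 runs on to 12925067 and Tcp1-201 to 12924556. Tcp1-206, a retained-intron model of 768 bases, held 1.11% in replicate 2 and 13.4% in replicate 1. The transcripts typed as protein-coding summed to 1217 TPM in replicate 2 and 2215 TPM in replicate 1, so Tcp1 stayed the most abundant of the genes without the other models.

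Cct4 showed a like split. Cct4-204, of 2484 bases, held 67.6% in replicate 2 and 37.5% in replicate 1, and Cct4-201, of 1634 bases, held 30.1% in replicate 2 and 61.3% in replicate 1. Here too both coding parts end at the same base (23003148), and the longer model runs on to 23003780 where the shorter ends at 23003151. The models also differ elsewhere. Tcp1-209 has 12 exons and a coding part from 12916566, and Tcp1-201 has 11 exons and a coding part from 12916627. Cct4-204 has 14 exons and starts at 22990519, and Cct4-201 has 13 and starts at 22990650. In both genes replicate 2 assigned more to the longer model, and which of these differences set the estimates was not tested.

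Cct6b had a pair of coding transcripts that differ at the 5′ end and share their 3′ end (82719250). Cct6b-201, of 532 codons with the stop, held 69.9% of the Cct6b level in replicate 2 and 86.4% in replicate 1. Cct6b-202, of 493 codons, held 30.1% in replicate 2 and 13.6% in replicate 1. The posterior SD of their counts was 77.5 reads in replicate 2 and 142 reads in replicate 1, small beside the 1725 and 1203 reads assigned to Cct6b-202. Taken alone, Cct6b-201 had 173 TPM in replicate 2 and 209 TPM in replicate 1, still above Cct6a in both.

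Parts of Cct3 and Cct8 were assigned to models without a full coding part. In Cct3 a retained-intron model of 472 bases, Cct3-203, held 14.3% in replicate 2 and 0.1% in replicate 1, from 241 and 1.51 reads. Cct8-209, typed as subject to nonsense-mediated decay, held 20.02% of Cct8 in replicate 2 and 30% in replicate 1. Over the transcripts typed as protein-coding, which include some short models, Cct3 had 352 TPM in replicate 2 and 225 TPM in replicate 1. Cct8 had 131 and 207 TPM. On that sum Cct3 lay below Cct7 (409 TPM) in replicate 2, so the second rank of Cct3 there, and the ratios that use it, rest on its other models.

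**Figure D4:**
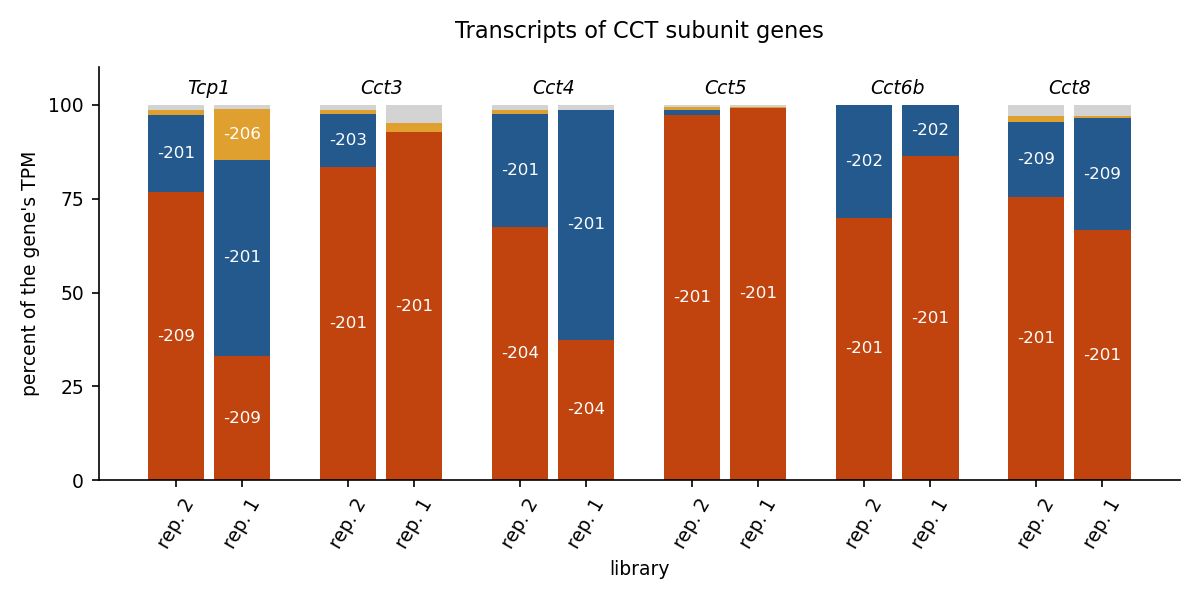
Share of each gene's TPM (percent) held by its transcripts in replicate 2 (left bar of each pair) and replicate 1 (right bar), for the 6 CCT genes with more than 1 transcript. The 3 transcripts with the largest share in either library are coloured in that order and numbered where they fit, and grey is the rest. Tcp1 and Cct4 change their leading transcript between the libraries, and Cct5-201 holds over 97% in both.

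Other loci took few of the reads that resemble CCT transcripts. At 90% identity or more over 200 bases or more, 5 genes outside the member loci matched a CCT transcript. The processed pseudogenes Cct3-ps1 and Gm11516 had 0 counts in both libraries, Gm15495 had 0 in replicate 2 and 2 in replicate 1, and Gm5380 had 1 in replicate 2 and 2 in replicate 1. Acat2, which resembles Tcp1-209 over 445 bases, had 340 counts in replicate 2 and 408 in replicate 1, beside the 35930 and 97360 counts of Tcp1.

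Overlapping genes on the other strand were a second source of shared sequence. Acat3 shares 571 exonic bases with Tcp1 and had 93.9 counts in replicate 2 and 123 in replicate 1. Usp16 shares 192 exonic bases with Cct8 and had 3913 counts in replicate 2 and 10643 in replicate 1. Psph reaches to 129787449 on chromosome 5, just past the start of the deposited Cct6a model at 129787439, and had 292 counts in replicate 2 and 160 in replicate 1. Whether the quantification used strand is not given in the sources used here, so reads in the overlaps, of Usp16 and Cct8 most of all, may be divided wrongly.

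The genes that work with CCT were next set beside its subunits. The median of the 8 places was 323 TPM in replicate 2 and 227 TPM in replicate 1. Prefoldin, a complex that hands unfolded actin and tubulin to CCT, had all 6 subunits detected, with a median of 71.8 TPM in replicate 2 and 27.9 TPM in replicate 1. Its highest members were Pfdn5 at 451 TPM in replicate 2 and 137 TPM in replicate 1, and Pfdn1 at 119 and 123 TPM. The prefoldin-like genes were lower, led by Uri1 at 61.8 TPM in replicate 2 and 96.8 TPM in replicate 1, and Pdrg1 at 25.5 and 18.9 TPM.

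Of the phosducin-like co-chaperones, which bind CCT and modulate its work, Pdcl2 stood far above the rest. Pdcl2, the germ cell member of that family, had 789 TPM in replicate 2 and 2091 TPM in replicate 1, above every CCT gene but Tcp1 in both libraries. Txndc9 had 68.8 TPM in replicate 2 and 121 TPM in replicate 1. Pdcl3 and Pdcl, the other two, lay between 7.48 and 13.5 TPM.

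All 5 tubulin cofactors, which assemble the tubulin dimer after CCT has released its parts, were detected. Tbca, which binds beta tubulin, had 274 TPM in replicate 2 and 481 TPM in replicate 1. Tbce had 28.2 TPM in replicate 2 and 63.4 TPM in replicate 1. The CCT-related genes lay below every CCT subunit gene in both libraries. Cct8l1, a relative of Cct8, had 67.5 TPM in replicate 2 and 28.7 TPM in replicate 1. Bbs10, of the chaperonin-like genes that help assemble the BBSome of cilia, had 10.9 TPM in replicate 2 and 24.0 TPM in replicate 1. The mitochondrial chaperonin genes Hspd1 and Hspe1 had 46.4 and 39.9 TPM in replicate 2 and 74.8 and 53.3 TPM in replicate 1.

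**Figure D5:**
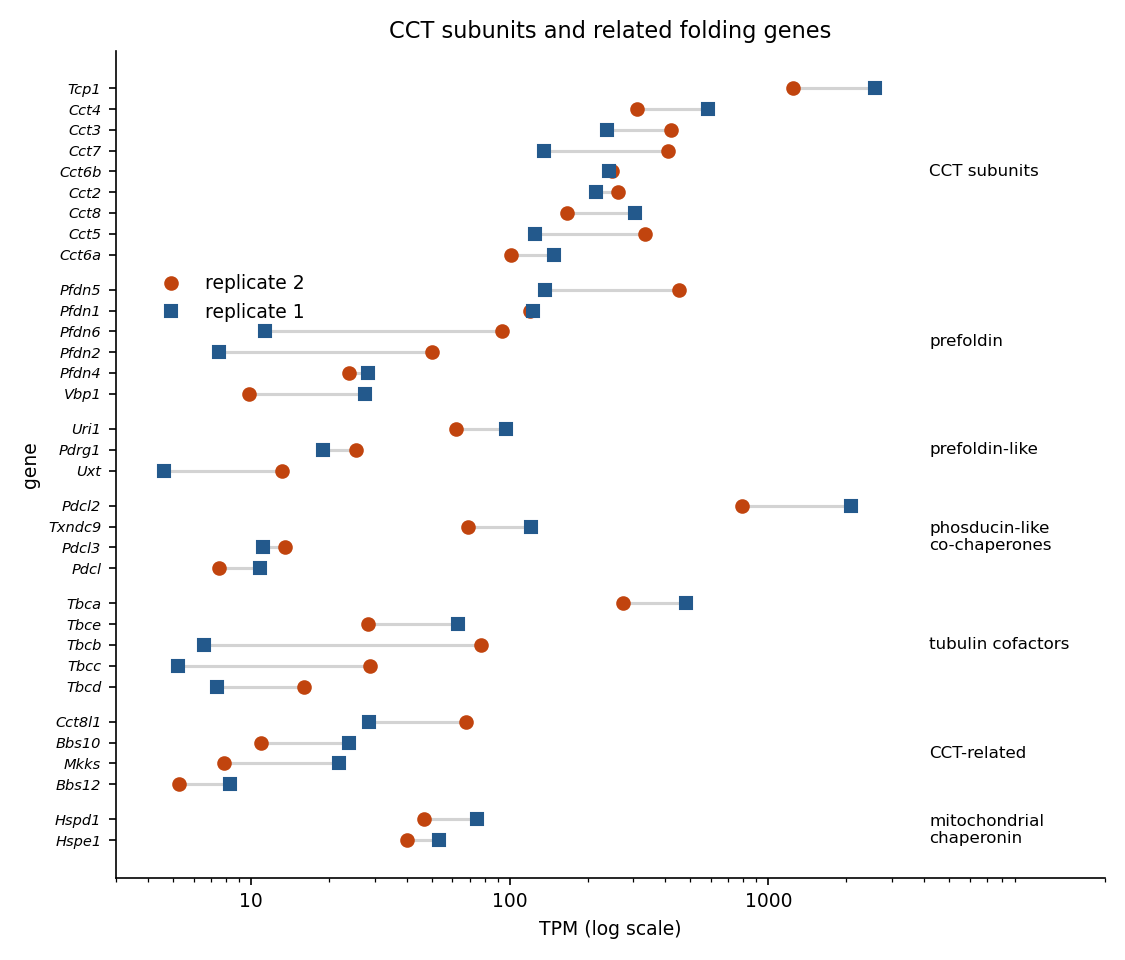
TPM (log scale) of the CCT genes and of related folding genes in replicate 2 (orange circles) and replicate 1 (blue squares), joined by a grey line for each gene and grouped by list. Of the genes shown, Tcp1 and Pdcl2 are the highest, and the prefoldin genes run from 7.53 to 451 TPM.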

How the data were processed

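Per the labels, polyA mRNA libraries with fragments of 350 to 450 bases were made from testis of 1 animal. Per the deposited notes, reads were aligned to the transcriptome on mm10 with annotation release M4, each library on its own. Names of the aligner and quantifier: not given in the sources used here. Deposited values are expected counts (estimated reads), TPM and FPKM per gene and transcript, the percent of each gene's level held by each transcript, effective lengths and posterior SDs. Names, types and coordinates came from GENCODE M21 on the same assembly, by identifier without version, for 42462 of 43346 genes. Promoters came from RefSeq (GRCm38.p6).

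Expected counts were rounded. TMM factors came from edgeR 4.0.16 (1.11 for replicate 2, 0.904 for replicate 1). An exact two-sided conditional binomial test was run per gene, at a mean of at least 10 counts, with Benjamini-Hochberg adjustment. It was first run on simulated Poisson counts. These held no spread beyond counting error and no shift with GC content, so they do not show how it behaves on these libraries. Log2 ratios used counts plus 0.5. A count of 0 allows up to 3 counts, or 0.145 CPM in replicate 2 and 0.0938 CPM in replicate 1. GC content is that of the most abundant transcript, known for 99.0% of tested genes. Of the 49 CCT transcripts, 46 have the same length in M21. Similar transcripts were found with BLAST 2.17.0 and coding sequences aligned with Biopython 1.88. R 4.3.3, DESeq2 1.42.0, Python 3.11.15, numpy 2.4.6, pandas 2.3.3, scipy 1.17.1 and matplotlib 3.10.9 were also used.

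The 9 members, the gene lists and the tests were chosen with earlier results of these data known. The genes named are the members, the 2 highest genes of each other list by mean TPM with any below detection, the 3 protein-coding genes nearest in level to Cct6b and to Cct6a, overlapping genes and similar transcripts. Only some of the other list members, overlapping genes and nearest genes are described.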

Additional observations from a re-analysis of the deposited data

How the results depend on the processing

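Cct6b stood above Cct6a by TPM, expected counts and leading transcripts alone (0.63 on the log2 scale). The log2 ratio was 0.70 to 1.29 when either library was left out. FPKM and posterior mean TPM gave nearly the same ratio as TPM but are not separate checks. FPKM is TPM times a constant within a library, and posterior mean TPM comes from the same reads and models. Every setting used the same coding-only model of Cct6a. The span of the 8 places was 12.3 to 20.6 when either library was left out, and the share of Cct6b in the summed TPM 5.28% to 7.08%. Taking protein-coding transcripts alone gave no value for these results, because M21 types no Cct6a transcript as protein-coding. The number of CCT genes called between the libraries was 5, but 2 with total counts, 0 with a ratio limit of 3 and 0 against genes of similar GC content. Over all genes it was 10368 (55.8%), with 9565 (51.5%) by total counts, 6231 (33.5%) with a ratio limit of 3 and 3719 (20.0%) against genes of similar GC content. By plain totals 70.3% of the calls were higher in replicate 2, and by TMM 57.5%. Of 72 member ratios under 8 alternatives, 5 changed sign. These were Cct2 (0.25) and Cct6b (0.0194) with total counts, and Cct2 (0.47), Cct6b (0.27) and Cct7 (-0.43) against genes of similar GC content. In all, 13 calls were lost, that of Cct7 against genes of similar GC content among them, and 1 was gained. Detection at 10 TPM in place of 1 left 6100 protein-coding genes. No paired analysis was possible because there is 1 group. Counting error was small for the CCT genes, whose lowest count was 1971, beside the difference between the libraries.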

Other observations

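Of 9 genes of CCT clients, the proteins it folds, 8 were called higher in replicate 2 by the exact binomial test with Benjamini-Hochberg adjustment, where 32.1% of all tested genes were, with a median log2 ratio of 2.40, where the 9 CCT genes had a median of -0.27 and all tested genes one of -0.00. Gnb1 was not called. Against genes of similar GC content 4 of the 9 were called (Actb, Tuba3a, Tubb5 and Fzr1), where 20.0% of all tested genes were, and the median of the 9 was 0.88. Tubb4b, a beta tubulin, had 1645 TPM in replicate 2 and 253 TPM in replicate 1, and the testis alpha tubulin Tuba3a had 1255 and 24.3 TPM. Fzr1, an activator of the anaphase-promoting complex, had 93.1 TPM in replicate 2 and 0.85 TPM in replicate 1. Their GC contents were 54.9%, 56.1% and 59.1%. Against genes of similar GC content the log2 ratio was 0.11 for Tubb4b, 2.80 for Tuba3a and 2.45 for Fzr1. Of the heat shock factor genes Hsf1 was called higher and Hsf2 lower in replicate 2, but against genes of similar GC content Hsf1 was at 1.19 and called, and Hsf2 at -0.10 and not called. Hsf1 (57.4% GC) had 23.0 TPM in replicate 2 and 0.81 TPM in replicate 1, and Hsf2 (41.1% GC) had 32.3 and 74.0 TPM. In all, 33 of 35 partner genes were detected in both libraries, with Fzr1 and Hsf1 the exceptions.

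By distance in log2(TPM + 1) over the 2 libraries, the protein-coding genes nearest to Cct6b were Ube2k, Minos1 and Tsc22d1. The nearest to Cct6a were Sypl, Atxn2 and Ndufaf2. Each was within 0.09 on that scale, which with 2 libraries describes a level only.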
